A study of Mus musculus with 3 samples.

Results

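The Rab GTPases of lymph node follicular stroma were examined as every gene whose symbol is Rab followed by a number, with an optional letter and digit. This rule gave 59 of the 51912 genes in the count matrices. The cells came from C57BL/6 mice of genotype CXCL13-TdTomato+, in which a Cxcl13 promoter drives the transgene, and were sorted as live, podoplanin-positive and TdTomato-positive cells without CD31 or CD45. There were 3 single-cell libraries. In the 2 libraries called 2-IC here, mice had received a first antigen immune complex (IC) 7 days and a second one 24 hours before analysis, and in the 1-IC library they had received 1 IC 24 hours before. All mice were immunized, so no library shows the unimmunized state, and lymph nodes of several mice were pooled, so a library does not stand for 1 animal. The transgene marks cells through the Cxcl13 promoter, a group wider than follicular dendritic cells (FDCs), and ages were not given in the labels.

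Rab proteins are small GTPases that cycle between a GTP-bound form on a membrane and a GDP-bound form in the cytosol, and each marks a set of compartments to which it recruits effectors. Rab5 proteins act on early endosomes, Rab11 proteins and Rab14 on the routes that return cargo to the cell surface, and Rab7 on late endosomes and the path to lysosomes. FDCs hold ICs on complement receptors encoded by Cr2 and are known to cycle them through endosomes that do not degrade them, which is why early, recycling and late members were compared between Cr2-positive cells and other stroma.

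The promoters of 4 of the members described further on are shown. Rab32 and Rab34 had the highest and the lowest log2 fold change of the tested Rab genes against the mean of the other gates, Rab11b is an endosome member lower in Cr2-positive barcodes, and Rab29, under the filter of the main test, had its highest level there in each library. Each is the stretch of 150 bases before the RefSeq start of the gene in GRCm38.p6, written 5′ to 3′ on the strand of the gene, with CG dinucleotides in capitals.
Rab29, chr1:131867074-131867223, plus strand: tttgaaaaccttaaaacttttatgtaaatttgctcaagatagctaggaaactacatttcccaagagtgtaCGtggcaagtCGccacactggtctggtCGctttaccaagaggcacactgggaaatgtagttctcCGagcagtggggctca
Rab32, chr10:10558266-10558415, minus strand: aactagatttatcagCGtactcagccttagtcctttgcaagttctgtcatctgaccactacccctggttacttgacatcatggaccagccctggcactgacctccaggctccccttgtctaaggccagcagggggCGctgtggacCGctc
Rab34, chr11:78188277-78188426, plus strand: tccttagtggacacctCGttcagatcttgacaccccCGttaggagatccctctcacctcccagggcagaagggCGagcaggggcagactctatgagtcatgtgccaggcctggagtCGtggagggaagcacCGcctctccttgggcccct
Rab11b, chr17:33760531-33760680, minus strand: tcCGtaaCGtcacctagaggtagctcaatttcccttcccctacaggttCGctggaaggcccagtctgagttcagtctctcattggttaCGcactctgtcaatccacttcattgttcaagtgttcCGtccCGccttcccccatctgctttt
The stretches hold 4, 3, 5 and 6 CG dinucleotides for Rab29, Rab32, Rab34 and Rab11b. Over longer windows, from 250 bases before to 50 after the start, the median was 7 CG dinucleotides in all 32851 windows. It was 19.5 in the 60 windows matched to 48 Rab genes. In these longer windows Rab29 held 12, Rab32 10 and Rab11b 12 CG dinucleotides, and the Rab34 windows, at different starts, held 13 and 25. The counts of the 150-base stretches are not to be set against these medians.

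The Rab5a, Rab21 and Rab24 windows are shown because they are the Rab windows that hold TCACGTGA, the palindrome with an E-box core to which TFEB and MITF, regulators of lysosomal genes, are known to bind. The letters in capitals mark it in 30 bases of each window.
Rab5a, chr17:53479127-53479156, plus strand: acccggggatgTCACGTGActtcggccccg
Rab21, chr10:115315604-115315633, minus strand: gcccaccgcggTCACGTGAcgaggggtgtg
Rab24, chr13:55321961-55321990, minus strand: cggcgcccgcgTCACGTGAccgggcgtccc
The motif was in 3 of 60 Rab windows (5%) and in 0.974% of all windows on either strand. The shorter CACGTG, which it contains, was in 10.0% of Rab windows and 7.15% of all windows. A match says only that these letters are in the window.

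The libraries held 3790 (2-IC replicate 1), 1029 (2-IC replicate 2) and 667 (1-IC) barcodes with 20607903, 12788101 and 3766526 UMIs (counted RNA molecules), and the study's filters on genes, mitochondrial UMIs and contaminant genes kept 1526, 391 and 326 of them. A kept barcode with at least 1 Cr2 UMI was called Cr2-positive, which gave 145, 35 and 50 barcodes. The other gates had no Cr2 UMI and a UMI of exactly 1 of Tnfsf11 (134, 27 and 42 barcodes), Fmod (69, 21 and 10) and Inmt (464, 91 and 81), genes that mark marginal and interfollicular, T-B border and medullary reticular cells. Of the 9 FDC markers, all had UMIs in the Cr2-positive barcodes of each library, and their summed level was 35499 to 82505 CPM (UMIs of a sum scaled to a total of 1000000) there against 20934 to 36313 CPM in the Tnfsf11 gate and 7103 to 12517 CPM in the Fmod and Inmt gates, where Madcam1 or Fcer2a was often at 0. Most of that sum was Cxcl13 and Clu, and 1 of the 9, Enpp2, was lower in the Cr2 gate (2410, 2003 and 1728 CPM) than in the Tnfsf11 gate (5171, 4135 and 4689 CPM) of each library. The Cr2 gate was free to hold the other gate genes, with Inmt at 181, 429 and 18.7 CPM (862, 999 and 701 CPM in the Inmt gate) and Fmod at 35.5, 9.59 and 0 CPM (276, 129 and 327 CPM in the Fmod gate). The part of that RNA in the differences between gates was not tested. Median depth per barcode was 4836.5 to 10091 UMIs in the Cr2 gate and 4375 to 18093 UMIs in the others, and 2-IC replicate 2 was the deepest library. The 2-IC libraries shared 76 barcodes by sequence, 2-IC replicate 1 and 1-IC shared 2, and 2-IC replicate 2 and 1-IC shared 0. At most 2 shared barcodes were in any gate of a library.

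Taken as a family, Rab RNA was at nearly the same level in all 4 gates. The summed level of the 59 genes was 2205 ± 122 CPM in Cr2-positive barcodes (mean ± SD, n = 3 libraries), 2262 ± 32.6 CPM in the Tnfsf11 gate, 2201 ± 151 CPM in the Fmod gate and 2185 ± 48.5 CPM in the Inmt gate. The early endosome members summed to 290 ± 26.8, 294 ± 5.76, 274 ± 20.7 and 318 ± 8.77 CPM in the same order. The recycling members summed to 447 ± 26.9, 481 ± 33.6, 432 ± 38.4 and 421 ± 5.51 CPM, and the late endosome members to 303 ± 73.1, 309 ± 22.8, 357 ± 31.1 and 326 ± 21.1 CPM. The Cr2 gate overlapped the other gates in the sum of all Rab genes and in the recycling and late sums, and the range of its early sum also overlapped those of the other gates. The 21 members on no compartment list summed to 454 ± 23.0 CPM in Cr2-positive barcodes, against 493 ± 7.84, 402 ± 16.8 and 439 ± 18.6 CPM. In each library their sum was below the Tnfsf11 gate and above the Fmod gate, and it overlapped the Inmt gate. The endoplasmic reticulum and Golgi sum overlapped all other gates. The group apart from all 3 other gates was the lysosome-related organelle set (Rab27a, Rab27b, Rab29, Rab32 and Rab38). It was at 89.7 ± 13.3 CPM in Cr2-positive barcodes against 49.6 ± 17.2, 44.3 ± 3.0 and 32.0 ± 20.6 CPM. At equal depth, with barcodes of at least 2000 UMIs weighted alike, that set was at 84.8 ± 8.5 CPM against 43.5 ± 7.72, 42.0 ± 5.30 and 30.5 ± 16.9 CPM, and all Rab genes were at 2168 ± 123 CPM against 2209 ± 141, 2129 ± 126 and 2153 ± 11.1 CPM. These sums are descriptions without a test.

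**Figure D1:**
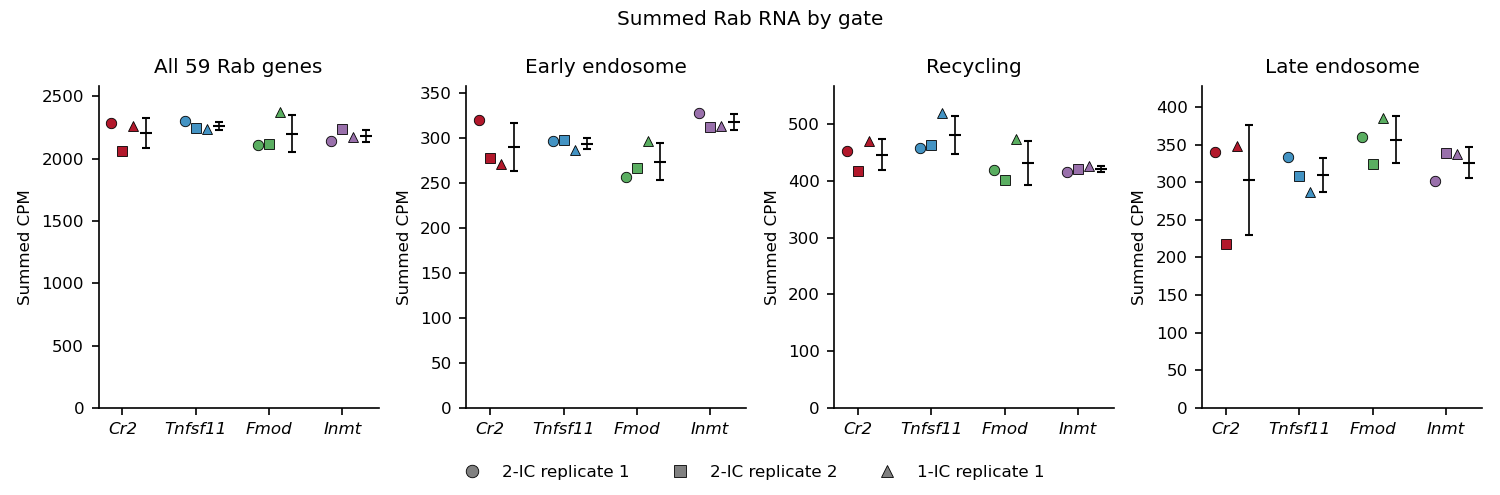
Summed CPM (y axis, linear from 0) of all 59 Rab genes and of the early endosome, recycling and late endosome members in each gate (x axis). Symbols are the 3 libraries, and the bar beside them is the mean with its SD. The total lies between 2065 and 2376 CPM in every gate and library, and the late endosome sum of 2-IC replicate 2 is the lowest Cr2-positive value at 218 CPM.

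For tests, counts were summed per library and gate, and the 12 sums were fitted together in edgeR with the library as a block, for 6833 genes. Of the 59 Rab genes, 10 had no UMI in the gates (Rab3b, Rab3c, Rab9b, Rab17, Rab25, Rab27b, Rab33a, Rab37, Rab39 and Rab44), which allows up to 0.377 CPM over all gates, 20 had 3 to 139 UMIs and fell under the filter on low counts, and 29 with 152 to 1719 UMIs were tested. The untested ones were Rab2b, Rab3a, Rab3d, Rab4a, Rab4b, Rab15, Rab19, Rab23, Rab26, Rab27a, Rab29, Rab31, Rab33b, Rab36, Rab38, Rab39b, Rab40b, Rab40c, Rab42 and Rab43. Against the mean of the other 3 gates, 5 of 29 Rab genes passed an adjusted p of 0.05, 2 higher and 3 lower, where 22.5% of all genes tested passed. Against single gates, 1 of 29 passed for Tnfsf11 (background 11.0%), 2 for Fmod (16.3%) and 6 for Inmt (26.4%). The share of Rab genes that passed was below the background in each of these contrasts. The median log2 fold change was 0.07 over the 29 genes, 0.06 over the 15 tested early, recycling and late endosome members and 0.0042 over all genes. With no library block 0 of the 29 passed against the mean of the gates (background 10.2%), and after thinning to 2000 UMIs per barcode 11 Rab genes could be tested and 0 passed (background 23.0%). The contrasts share the Cr2-positive sums and are not independent. With the library as a block, the p-values measure how far the differences between gates vary across these 3 libraries. They do not compare the conditions, which had 1 to 2 libraries each.

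**Figure D2:**
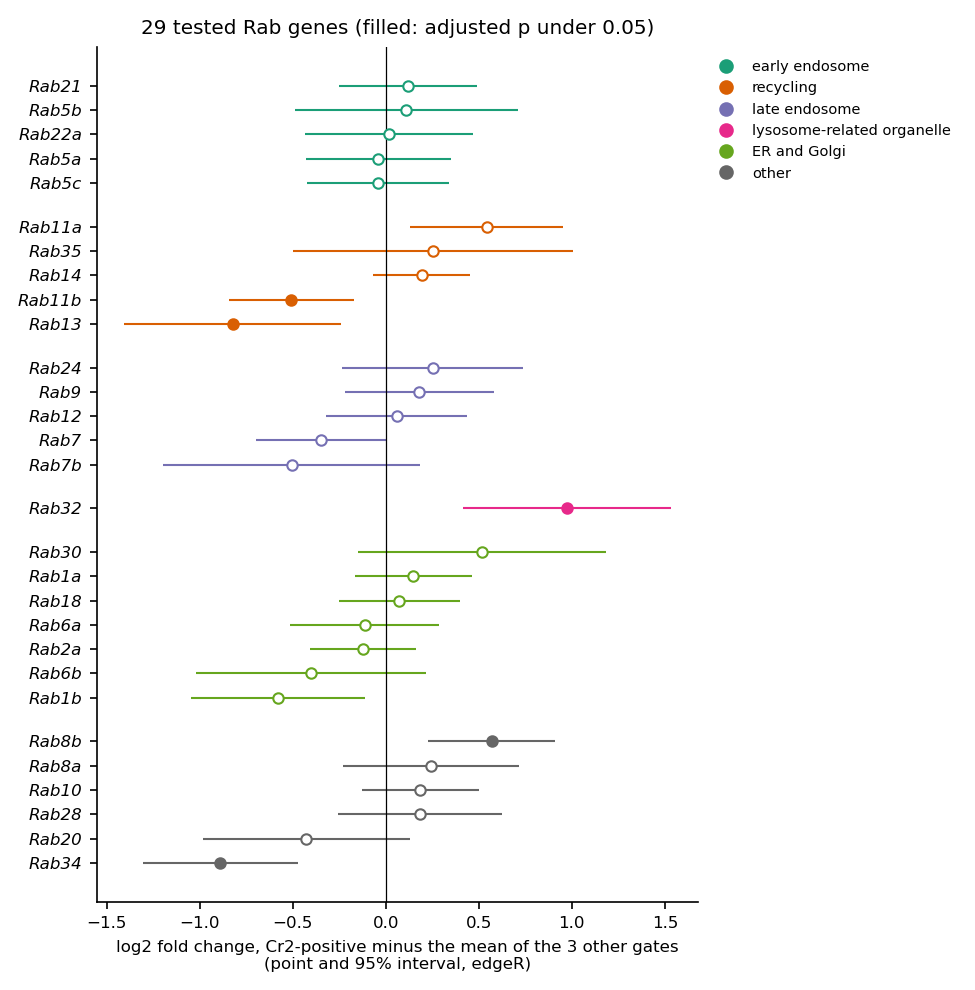
Log2 fold change of the 29 tested Rab genes (rows, grouped and coloured by compartment) between Cr2-positive barcodes and the mean of the 3 other gates (x axis, log2), with 95% intervals from edgeR. Filled points are Rab34, Rab13 and Rab11b to the left of 0 and Rab8b and Rab32 to the right, and the intervals of all early and late endosome members include 0, that of Rab7 ending at 0.01.

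Among early endosome members, 0 of the 5 tested passed in any contrast, where 22.5% of all genes passed against the mean of the gates. All 5 lay within 0.12 of 0 on the log2 scale against the mean of the other gates, with 95% intervals from -0.49 to 0.71 at the widest. At an unadjusted p under 0.05 the count was also 0, where 2203 of all 6833 genes were under 0.05 against the mean of the gates. Rab5a (chr17:53479234-53507680, plus strand), which drives fusion of early endosomes, was at 46.1, 67.2 and 74.7 CPM in the Cr2-positive barcodes of 2-IC replicate 1, 2-IC replicate 2 and 1-IC, and between 47.1 and 74.2 CPM in the 9 other sums. Its log2 fold change was -0.04 with an interval from -0.43 to 0.35. Rab5c, a close paralog with the same function, was at 103, 60.0 and 46.7 CPM in Cr2-positive barcodes and between 59.2 and 92.1 CPM elsewhere, so that 2-IC replicate 1 was the highest and 1-IC the lowest of the 12 sums. Rab5b, the third paralog, was at 23.7, 38.4 and 34.2 CPM against 14.8 to 38.9 CPM. Rab21, which acts in the endocytosis of integrins, was at 87.5, 52.8 and 74.7 CPM against 49.3 to 84.4 CPM, and Rab22a, which links early endosomes to recycling, at 41.4, 45.6 and 28.0 CPM against 32.1 to 59.8 CPM. The groups overlapped for each of these genes. Rab31 was not tested, with 12.5 to 18.9 CPM in the Cr2 gate and 4.96 to 29.7 CPM in the others. At 2000 UMIs per barcode, Rab5a was expected in 10.6 ± 3.96% of Cr2-positive barcodes and in 11.7 ± 1.32, 11.0 ± 3.16 and 12.5 ± 0.156% of the Tnfsf11, Fmod and Inmt gates, against 31.1, 36.7, 41.6 and 37.0% at full depth.

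Of 5 recycling members tested, Rab11b and Rab13 were lower in Cr2-positive barcodes against the mean of the gates, where 22.5% of all genes passed. Whether the recycling list differs from the early or late list was not tested. Rab11a, the close paralog of Rab11b, was fitted higher but missed the threshold. Rab11b (chr17:33742484-33760530, minus strand), which with Rab11a directs cargo from the recycling endosome to the surface, was at 71.0, 64.8 and 56.0 CPM in Cr2-positive barcodes, below each of the 9 other sums at 72.1 to 110 CPM. The log2 fold change was -0.51 ± 0.16 (SE, adjusted p = 0.0266) against the mean of the gates and -0.54 against Inmt (adjusted p = 0.0252), and it did not pass against Tnfsf11 (-0.47, adjusted p = 0.143) or Fmod (-0.51, adjusted p = 0.118). At equal depth Rab11b was expected in 11.6 ± 2.49% of Cr2-positive barcodes against 15.7 ± 3.35, 17.3 ± 2.81 and 16.2 ± 3.05% in the Tnfsf11, Fmod and Inmt gates (33.3, 49.2, 59 and 45.1% at full depth). Rab11b was one of 3 tested Rab genes, with Rab34 and Rab1b, whose Cr2-positive value was the lowest of the gates in every library, as it was for 9.41% of all genes tested.

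Rab11a (chr9:64715299-64737758, minus strand) went the other way in the fit, with 85.2, 50.4 and 62.3 CPM in Cr2-positive barcodes, 42.5 to 52.7 CPM in the Tnfsf11 gate, 30.9 to 74.2 CPM in the Fmod gate and 45.0 to 51.5 CPM in the Inmt gate. The Cr2 gate overlapped the Tnfsf11, Fmod and Inmt gates, the Fmod gate by the most, through its 1-IC sum of 10 barcodes and 5 Rab11a UMIs. The log2 fold change was 0.54 (95% interval 0.13 to 0.95, adjusted p = 0.0523). Whether the paralogs differ from each other in their response was not tested. Rab13 (chr3:90213695-90226385, plus strand), which returns junction proteins to the surface, was at 24.8, 21.6 and 15.6 CPM in Cr2-positive barcodes against 32.3 to 42.5 CPM in the Tnfsf11 gate and 36.9 to 48.9 CPM in the Inmt gate, with no overlap. The Fmod values of Rab13 were 53.6, 20.6 and 44.5 CPM and overlapped. Its log2 fold change was -0.82 ± 0.28 (SE, adjusted p = 0.0380), and -1.01 against Inmt (adjusted p = 0.0131). Rab14, which acts between the Golgi and recycling endosomes, had the most UMIs of all members, 1719, and so the narrowest interval, with 232, 240 and 286 CPM in Cr2-positive barcodes against 176 to 304 CPM and a log2 fold change of 0.19 (95% interval -0.07 to 0.45). Rab35, which sorts cargo for fast recycling, was at 18.7 to 33.6 CPM against 0 to 51.4 CPM. Rab4a and Rab4b, the other fast-recycling members, stayed under the filter with 56 and 39 UMIs, Rab15 had 3 UMIs, and Rab17 and Rab25, known from epithelia, had none.

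The calls in the recycling group rested on few libraries. Without 2-IC replicate 1, Rab11b was at -0.39 (adjusted p = 0.386) and Rab13 at -0.70 (adjusted p = 0.342), and without the 1-IC library they were at -0.52 (adjusted p = 0.0733) and -0.71 (adjusted p = 0.159). DESeq2 gave the same signs for Rab11b and Rab13 with adjusted p of 0.101 each, and with the study's contaminant filter dropped Rab11b was at -0.07 (adjusted p = 0.682). That filter removes barcodes with UMIs of immune genes such as Cd79a, Cd79b and Ptprc. The study reports complement receptor on B cells too, so without the filter the Cr2 gate can also hold B cells. Their part in the values without the filter was not tested.

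Among late endosome members, 0 of 5 tested passed in any contrast, where 22.5% of all genes passed against the mean of the gates. At an unadjusted p under 0.05 the count was 0 against the mean of the gates and against Tnfsf11, 1 against Fmod (Rab7b, lower, adjusted p = 0.106) and 1 against Inmt (Rab7, lower, adjusted p = 0.105). Of all 6833 genes, 2203, 1490, 1869 and 2435 were under that limit in these contrasts, in the same order. Rab7 (chr6:87999106-88045270, minus strand), which governs maturation to the late endosome and fusion with the lysosome, was at 119, 67.2 and 128 CPM in Cr2-positive barcodes against 104 to 153 CPM elsewhere. The value of 2-IC replicate 2 was the lowest of the 12, and those of the other libraries lay among the other gates. The log2 fold change of Rab7 was -0.35 (95% interval -0.70 to 0.01, adjusted p = 0.166), and at equal depth its expected share was 19.9 ± 4.86% of Cr2-positive barcodes against 21.2 ± 3.18, 22.0 ± 4.30 and 23.7 ± 1.25% (45.6, 60.2, 57.6 and 55.8% at full depth). Rab7b, a relative that acts between late endosomes and the Golgi, was at 13, 16.8 and 12.5 CPM against 9.80 to 54.0 CPM. Rab9, which returns receptors from late endosomes to the Golgi, was at 55.6, 40.8 and 62.3 CPM against 29.8 to 89.1 CPM, with a log2 fold change of 0.18 (interval -0.22 to 0.58). Rab12, which sends the transferrin receptor to lysosomes, was at 93.5, 69.6 and 84.1 CPM against 65.9 to 96.4 CPM, and Rab24, tied to autophagy, at 59.1, 24.0 and 62.3 CPM against 23.7 to 89.1 CPM. All of these groups overlapped.

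**Figure D3:**
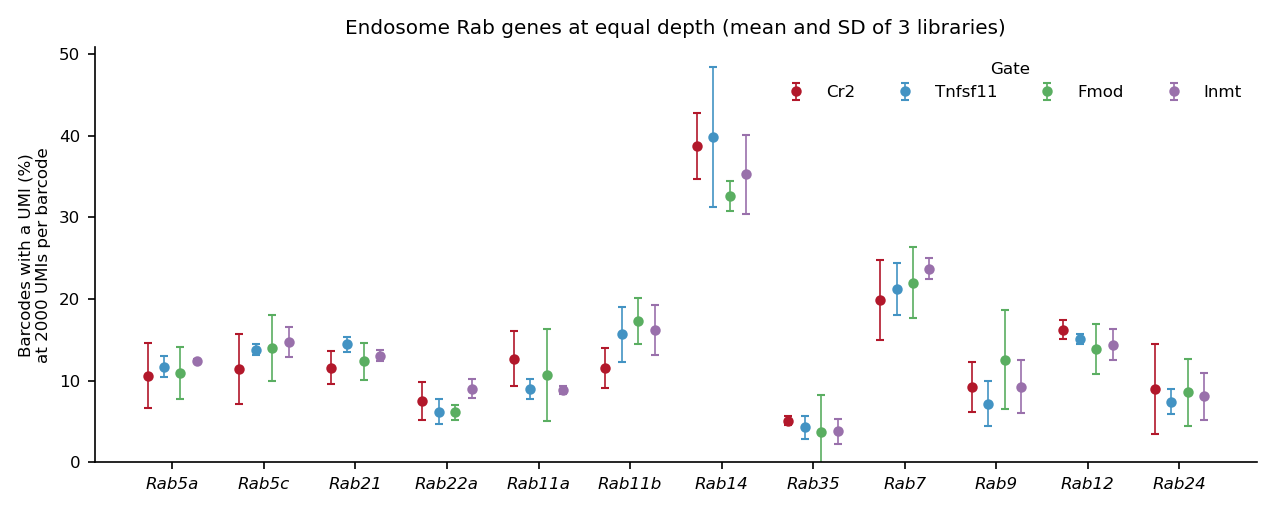
Expected percent of barcodes with at least 1 UMI (y axis) when each barcode is taken at 2000 UMIs, for 12 endosome Rab genes (x axis) in the 4 gates, as mean and SD of 3 libraries. Rab11b is at 11.6% in the Cr2 gate and 15.7 to 17.3% in the others, and Rab5a is at 10.6% against 11.0 to 12.5%.

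Outside the endosome lists, Rab34 was lower and Rab8b and Rab32 were higher in Cr2-positive barcodes. Rab34 (chr11:78188430-78192193, plus strand), which is known for the positioning of lysosomes near the Golgi and for the formation of primary cilia, was at 40.2, 36.0 and 31.1 CPM in Cr2-positive barcodes. It was at 77.9, 49.6 and 65.3 CPM in the Tnfsf11 gate, 70.7, 48.9 and 89.1 CPM in the Fmod gate and 87.3, 58.0 and 78.3 CPM in the Inmt gate, so the groups did not overlap. Rab34 was the one Rab gene that passed against each single gate, with log2 fold changes of -0.76 (Tnfsf11, adjusted p = 0.0389), -0.82 (Fmod, adjusted p = 0.0369) and -1.08 (Inmt, adjusted p = 0.000409), and -0.89 ± 0.20 (SE, adjusted p = 0.00201) against their mean. The calls against Tnfsf11 and Fmod were lost in DESeq2 (adjusted p = 0.139 and 0.0979), with no library block (0.300 and 0.225), without 2-IC replicate 1 (0.446 and 0.371), without the 1-IC library (0.143 and 0.132), without Malat1-poor barcodes (0.109 and 0.0841) and without barcodes that hold an immune marker UMI (0.204 and 0.190). At equal depth it was expected in 5.91 ± 2.03% of Cr2-positive barcodes against 11.1 ± 3.26, 11.7 ± 2.87 and 12.9 ± 3.41% (21.6, 41.6, 43.8 and 34.9% at full depth). The fold change of Rab34 against the mean was -1.52 with the gate genes required at 2 UMIs or more and -0.66 without barcodes that hold an immune marker UMI, both called, and -0.76 (adjusted p = 0.134) without 2-IC replicate 1. The summed fibroblast markers were also lower in the Cr2 gate of each library, at 498 to 2046 CPM against 2019 to 4866 CPM in the other gates. Most of that sum was Col1a1 and Col3a1, and Pdgfrb was lower too. Pdpn, at 105, 91.1 and 71.6 CPM in the Cr2 gate against 81.9 to 129 CPM, overlapped the other gates. Ltbr also overlapped them, at 50.9, 31.2 and 34.2 CPM against 33.0 to 62.1 CPM. The part of these markers in the Rab34 difference was not tested.

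Rab8b (chr9:66843664-66919687, minus strand), which acts in transport from the Golgi and recycling endosomes to the surface, was at 74.5, 115 and 103 CPM in Cr2-positive barcodes and at a like level in the Tnfsf11 gate, 88.7, 112 and 91.5 CPM. It was lower in the Fmod gate (27.9, 69.4 and 44.5 CPM) and the Inmt gate (49.3, 79.2 and 57.7 CPM). The log2 fold change was 1.06 against Fmod (adjusted p = 0.00336), 0.61 against Inmt (adjusted p = 0.0152) and 0.04 against Tnfsf11 (95% interval -0.35 to 0.44). Its paralog Rab8a was at 52.0, 40.8 and 68.5 CPM against 25.7 to 57.8 CPM, with a fold change of 0.24 (interval -0.23 to 0.72). Leaving out 2-IC replicate 1, 2-IC replicate 2 or 1-IC took the adjusted p of Rab8b against the mean of the gates from 0.0141 to 0.0929, 0.0513 and 0.103, and with no contaminant filter its fold change was 0.16 (adjusted p = 0.318).

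Rab32 (chr10:10545002-10558265, minus strand), which serves lysosome-related organelles and is well known from melanocytes and macrophages, was at 65.1, 52.8 and 56.0 CPM in Cr2-positive barcodes. It was at 37.1, 62.1 and 26.1 CPM in the Tnfsf11 gate, 30.0, 36.0 and 29.7 CPM in the Fmod gate and 15.3, 51.0 and 12.4 CPM in the Inmt gate. The groups did not overlap with Fmod or Inmt, but in 2-IC replicate 2 the Tnfsf11 gate was above the Cr2 gate. The log2 fold change was 0.97 ± 0.27 (SE, adjusted p = 0.0108) against the mean and 1.26 against Inmt (adjusted p = 0.00327), and it did not pass against Tnfsf11 (0.63, adjusted p = 0.267) or Fmod (1.03, adjusted p = 0.0783). Without 2-IC replicate 1 the fold change of Rab32 against the mean was 0.70 (adjusted p = 0.250), without the 1-IC library 0.84 (adjusted p = 0.0738), and with no contaminant filter 0.28 (adjusted p = 0.358).

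Rab29 (chr1:131867224-131872887, plus strand), a relative of Rab32 and Rab38 that recruits LRRK2 to lysosomes and the Golgi, had 86 UMIs in the gates, fell under the filter and was singled out after its values were seen. It was at 30.8, 14.4 and 40.5 CPM in Cr2-positive barcodes, from 26, 6 and 13 UMIs, with exact Poisson 95% intervals of 20.1 to 45.1, 5.28 to 31.3 and 21.5 to 69.2 CPM that cover counting error only. In the Tnfsf11, Fmod and Inmt gates it was at 10.8, 0 and 3.27, at 15.0, 2.57 and 0, and at 7.86, 3.52 and 2.06 CPM, so within each library the Cr2-positive value was the highest, which was so for 9.97% of all genes tested and 0 of the 29 tested Rab genes. With no filter on low counts, Rab29 had a log2 fold change of 2.05 against the mean of the gates (adjusted p = 2.11e-06), where 5.31% of 20724 genes were called higher. At equal depth Rab29 was expected in 5.33 ± 2.42% of Cr2-positive barcodes against 0.931 ± 1.04, 1.31 ± 1.96 and 0.928 ± 0.580% (16.5, 3.03, 4.49 and 3.03% at full depth). The other relatives, Rab38, Rab27a and Rab27b, had 13, 3 and 0 UMIs in all gates.

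The summed myeloid markers, Rab29, Rab32 and Rab8b were higher in the Cr2 gate than in the Fmod and Inmt gates of each library. In 2-IC replicate 1 the myeloid sum was 439 CPM in the Cr2 gate and 500 CPM in the Tnfsf11 gate. It was 230 and 119 CPM in 2-IC replicate 2, and 458 and 408 CPM in 1-IC. Rab8b ordered these gates alike. Rab29 was higher in the Cr2 gate of each library, and Rab32 in all but 2-IC replicate 2. The part of this RNA was not tested, apart from leaving out barcodes with an immune marker UMI. The 6 myeloid markers summed to 230 to 458 CPM in Cr2-positive barcodes, 119 to 500 CPM in the Tnfsf11 gate, 54.0 to 261 CPM in the Fmod gate and 32.5 to 173 CPM in the Inmt gate, with Lyz2, Aif1 and Cd52 above 0 in the Cr2 gate of each library and C1qa, Fcer1g and Tyrobp at 0 in that of 2-IC replicate 2. The 8 B cell markers summed to 638 to 1509 CPM in the Cr2 gate and 391 to 1301 CPM in the others, with Cd22 at 0 in the Cr2 gate of 2-IC replicate 2 and of 1-IC, while the T cell and endothelial lists stayed at 21.3 CPM or less. In barcodes without an immune marker UMI, Rab29 was at 24.3, 15.6 and 16.7 CPM in the Cr2 gate and at 0 to 11.1 CPM elsewhere. In the same barcodes Rab32 was at 61.5, 59.1 and 49.98 CPM in the Cr2 gate, 31.5, 76.4 and 33.0 CPM in the Tnfsf11 gate, 33.2, 40.7 and 29.7 CPM in the Fmod gate and 13.4, 53.6 and 13.9 CPM in the Inmt gate. The Cr2 gate then overlapped the Inmt gate as well as the Tnfsf11 gate. Rab32 had a log2 fold change of 0.85 against the mean (adjusted p = 0.0476) in these barcodes, and that of Rab8b was 0.70 (adjusted p = 0.00969).

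**Figure D4:**
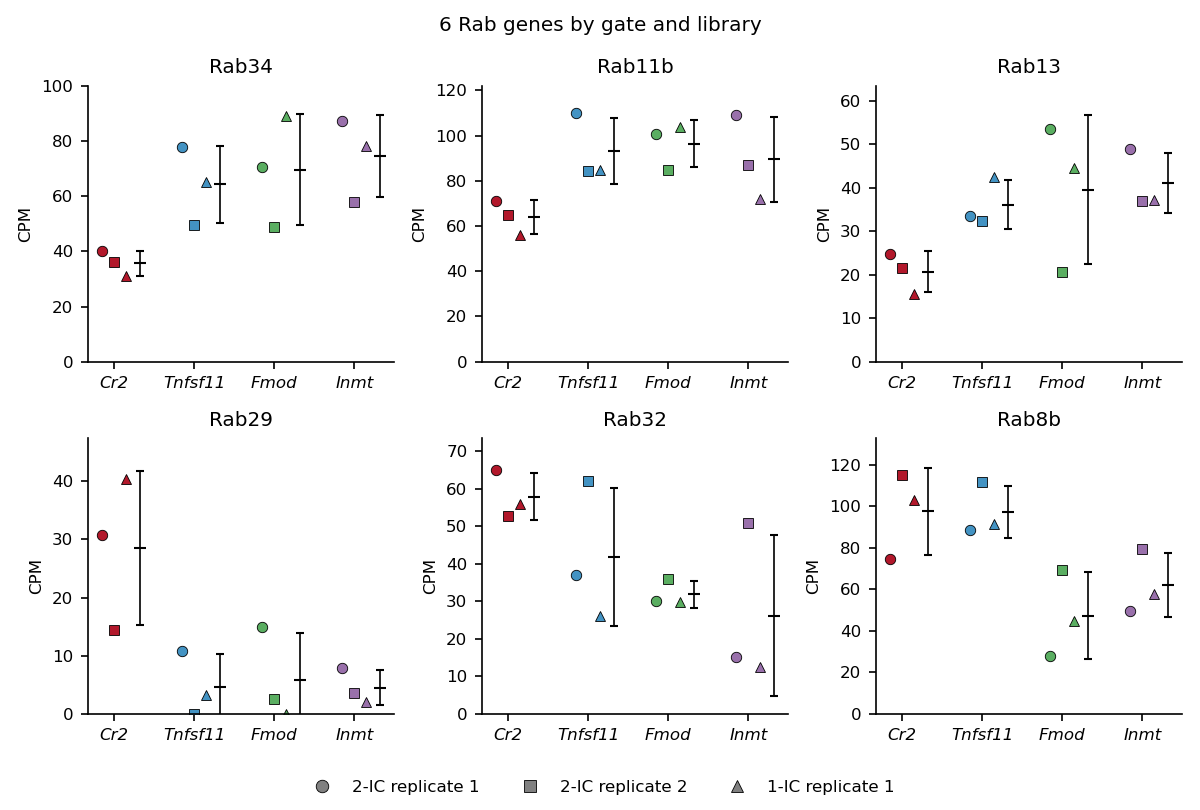
CPM (y axes, linear from 0) of Rab34, Rab11b, Rab13, Rab29, Rab32 and Rab8b in each gate (x axis). Symbols are the 3 libraries, and the bar is the mean with its SD. The Cr2-positive values of Rab34, 31.1 to 40.2 CPM, lie below all other gates, those of Rab29 lie above the other gates within each library, and Rab8b is alike in the Cr2 and Tnfsf11 gates.

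The 7 tested members of the endoplasmic reticulum and Golgi group (Rab1a, Rab1b, Rab2a, Rab6a, Rab6b, Rab18 and Rab30) gave 0 calls against the mean of the gates, where 22.5% of all genes passed. At an unadjusted p under 0.05, where 2203 of all 6833 genes lay, there was 1 member. That gene was Rab1b, which acts between the endoplasmic reticulum and the Golgi, with 35.5, 21.6 and 28.0 CPM in Cr2-positive barcodes and 32.7 to 52.7 CPM elsewhere. It passed against Inmt alone, with a log2 fold change of -0.68 (adjusted p = 0.0390), and was at -0.58 against the mean (adjusted p = 0.0701). The paralog Rab1a was at 0.15 (95% interval -0.17 to 0.46). The other Rab genes tested, Rab10, Rab20 and Rab28, did not pass in any contrast.

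Partner genes of the endosome Rabs were read from lists chosen with earlier results of these data known. Of 16 Rab5 partners, 6 were tested and 1 was lower in Cr2-positive barcodes against the mean of the gates, Eea1. Of 22 recycling partners, 12 were tested, with 1 higher (Ehd1) and 1 lower (Ehd2). Of 20 late endosome and lysosome partners of Rab7, 13 were tested, with 4 higher and 2 lower, and of 8 genes of the Rab membrane cycle, 5 were tested and 0 passed, also at an unadjusted p under 0.05. In this contrast 22.5% of all genes passed, and 2203 of 6833 had an unadjusted p under 0.05. The median log2 fold changes of these lists were -0.04, 0.18, 0.24 and -0.17, against 0.0042 over all genes tested.

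Ehd1, an ATPase that shapes tubules of the recycling endosome, was at 407, 321 and 364 CPM in Cr2-positive barcodes, 223, 261 and 203 CPM in the Tnfsf11 gate and 100 to 148 CPM in the Fmod and Inmt gates. The groups did not overlap, and the log2 fold change was 1.31 ± 0.13 (SE, adjusted p = 6.27e-08) against the mean, from 0.77 against Tnfsf11 to 1.72 against Inmt, each called. Its relative Ehd2, which sits at caveolae of the surface, was at 42.6, 38.4 and 6.23 CPM against 45.7 to 129 CPM (-1.27, adjusted p = 0.000488). Eea1, the Rab5 effector that tethers early endosomes, was at 67.4, 127 and 96.5 CPM in Cr2-positive barcodes and at 97.8, 202 and 146 CPM in the Inmt gate, lower in each library. Its log2 fold change was -0.61 against the mean (adjusted p = 0.00329), -0.73 against Tnfsf11 (adjusted p = 0.00497), -0.63 against Inmt (adjusted p = 0.00493) and -0.48 against Fmod (adjusted p = 0.103).

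Npc1 and Npc2, which together export cholesterol from the lysosome, differed in opposite directions. Npc1 was at 42.6, 74.4 and 49.8 CPM in Cr2-positive barcodes and 8.25 to 28.1 CPM in all other sums, a log2 fold change of 1.42 (adjusted p = 0.000248), and Npc2 was at 526, 312 and 374 CPM against 482 to 832 CPM (-0.65, adjusted p = 0.00095). Both passed in the 3 single contrasts. The lysosomal membrane proteins also split. Lamp2 was lower (214, 213 and 80.9 CPM against 193 to 376 CPM, -0.72, adjusted p = 0.00107), and Cd63 was higher, with 2114, 1120 and 1933 CPM against 781 to 1719 CPM (0.61, adjusted p = 0.000446). Lamp1, at 802, 501 and 900 CPM against 445 to 686 CPM (0.43, adjusted p = 0.0111), and Vps39, a subunit of the HOPS tether that binds Rab7, at 31.9, 45.6 and 12.5 CPM against 8.25 to 29.7 CPM (1.22, adjusted p = 0.00823), were higher in the fit. Pooled across libraries, Cd63, Lamp1, Lamp2, Npc2 and Vps39 overlapped the other gates. Within every library the Cr2-positive value of Lamp1 was the highest of the gates, as for 9.97% of all genes tested. Those of Lamp2 and Npc2 were the lowest in every library, as for 9.41%, while Cd63 and Vps39 kept no such order. Cd63 and Lamp1 had log2 fold changes of -0.08 and -0.15 with no contaminant filter. Ehd1 and Npc1 passed against the mean under every alternative in which they were tested. After thinning 2269 genes were tested, and genes under the filter there have no result. Without 2-IC replicate 1, Eea1 (adjusted p = 0.0598), Lamp1 (0.143) and Vps39 (0.161) did not pass, nor did Lamp1 without the 1-IC library (0.0952) or Vps39 without 2-IC replicate 2 (0.200). Ehd2, Eea1, Cd63, Lamp1, Lamp2 and Vps39 were named after their values were seen.

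**Figure D5:**
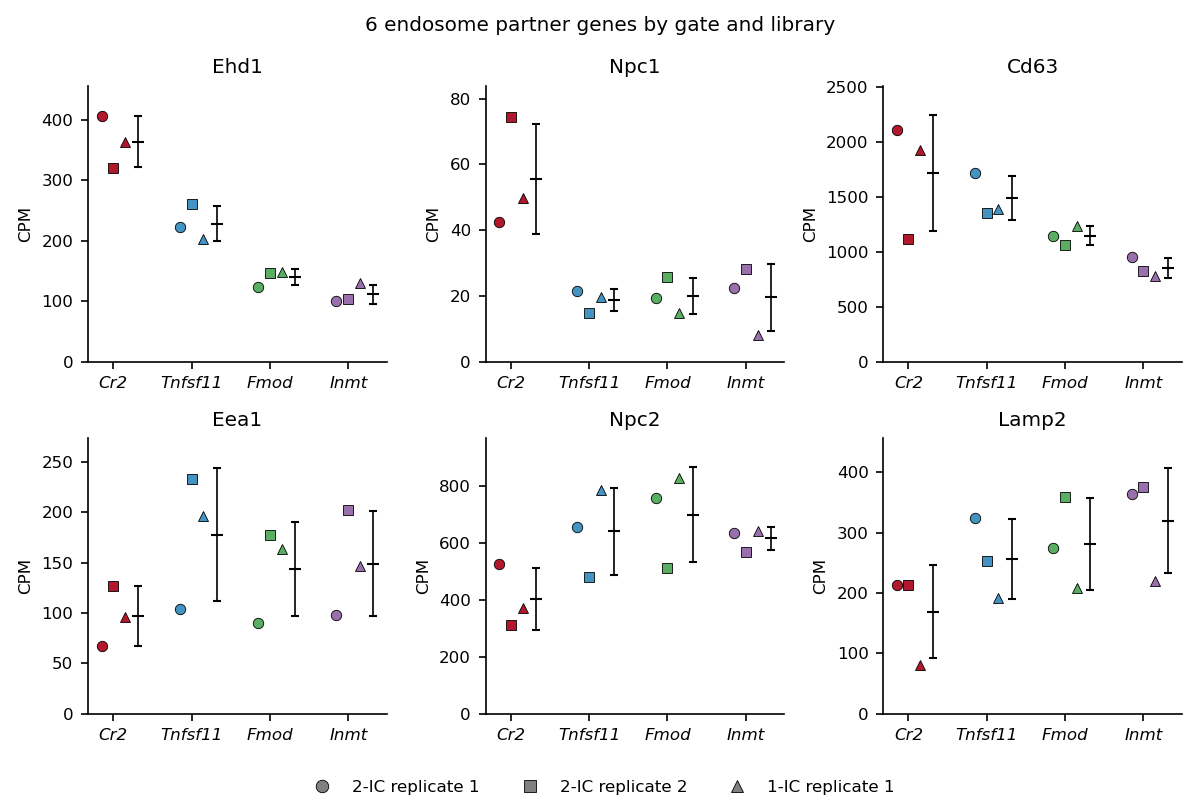
CPM (y axes, linear from 0) of Ehd1, Npc1, Cd63, Eea1, Npc2 and Lamp2 in each gate (x axis), with the 3 libraries as symbols and the mean with its SD beside them. Ehd1 lies at 321 to 407 CPM in the Cr2 gate and at 261 CPM or less in the others.

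Cr2-positive barcodes held a class with under 1% of its UMIs from Malat1, a nuclear RNA, of 35, 10 and 18 barcodes at a median depth of 3368, 5774 and 3207 UMIs, beside 110, 25 and 32 Malat1-rich ones. Of 18 Rab genes tested between these classes, 0 passed in edgeR and 0 in DESeq2, where 6.31% of 3217 genes passed in edgeR. An unadjusted p under 0.05 was found for 1 of these Rab genes and for 962 of all 3217 genes. After thinning to 2000 UMIs per barcode 2 Rab genes could be tested and both passed, where 23.4% of 756 genes passed. Rab14 was then fitted at -1.27 (adjusted p = 0.0431) in place of -0.20. Rab2a was fitted at -1.75 (adjusted p = 0.0137) in place of -0.12, so both were lower in Malat1-poor barcodes in that fit. The equal-depth sums of their groups hold other genes too, so they cannot show whether Rab14 or Rab2a itself fell. The endoplasmic reticulum and Golgi members, with Rab2a, were at 562 ± 72.6 CPM in Malat1-poor and 616 ± 38.5 CPM in Malat1-rich barcodes. The recycling members, with Rab14, were at 500 ± 62.5 and 432 ± 61.8 CPM. The gene with an unadjusted p under 0.05 at full depth was Rab11a, at 128, 131 and 109 CPM in Malat1-poor and 76.6, 36.5 and 52.6 CPM in Malat1-rich barcodes, higher in each library, with a log2 fold change of 0.98 (95% interval 0.11 to 1.84, adjusted p = 0.131). Rab7 was at 149, 131 and 218 CPM in Malat1-poor and 114, 56.2 and 109 CPM in Malat1-rich barcodes (0.65, interval -0.08 to 1.37). Rab34 was at 28.4, 16.4 and 0 CPM in Malat1-poor and 42.6, 39.3 and 37.6 CPM in Malat1-rich barcodes, from 5 UMIs in all in the former, and was not tested. Rab29 was at 71.0, 32.8 and 36.3 CPM against 22.7, 11.2 and 41.3 CPM, higher in both 2-IC libraries. In 2-IC replicate 2 this rests on few Rab29 UMIs, as its Malat1-poor sum held 60967 UMIs of all genes. Summed Rab RNA was 2309 ± 138 CPM in Malat1-poor and 2187 ± 161 CPM in Malat1-rich barcodes. Myeloid markers summed to 574 to 1290 CPM in the Malat1-poor and 171 to 324 CPM in the Malat1-rich class. B cell markers summed to 968 to 3580 CPM and 582 to 1096 CPM, higher in the Malat1-poor class of each library. The part of these markers in these values was not tested. Where barcodes with an immune marker UMI were left out, 4 of all genes passed between the classes in place of 203. With the Malat1-poor barcodes left out, Rab34, Rab11b, Rab13, Rab8b and Rab32 still passed against the mean of the gates, at -0.77, -0.56, -1.01, 0.50 and 1.06.

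The 1-IC condition had 1 library, so the times after immunization were not tested. In Cr2-positive barcodes Rab5c was at 46.7 CPM (exact Poisson 95% interval 26.1 to 77.0, counting error only) in the 1-IC library and at 103 (82.4 to 127) and 60.0 (38.8 to 88.5) CPM in the 2-IC libraries. Rab7 was at 128 CPM (91.6 to 173) in 1-IC and 119 (97.3 to 145) and 67.2 (44.6 to 97.1) CPM in 2-IC. For both genes the 2-IC libraries lay farther from each other than the 1-IC library lay from the nearer of them.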

How the data were processed

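UMI counts were measured in sorted lymph node stroma, in 2 libraries from mice given 2 ICs and 1 from mice given 1 IC. The deposited values are raw UMI counts for each gene and barcode, which the authors obtained with Cell Ranger (5.0.0 per the file headers) on GRCm38. The study's filters were applied, which drop barcodes with under 200 genes, over 10% mitochondrial UMIs or any UMI of its 13 contaminant genes. Counts were summed per library and gate and tested with edgeR 4.0.16 (R 4.3.3), by the quasi-likelihood test after TMM scaling and filterByExpr, at an adjusted p (Benjamini-Hochberg, all genes tested) under 0.05. The library entered as a block, since all gates of 1 library come from 1 cell suspension. Equal-depth values used barcodes of at least 2000 UMIs, which left out 33, 13, 5 and 59 barcodes of the Cr2, Tnfsf11, Fmod and Inmt gates. The share at 2000 UMIs is the hypergeometric expectation. In the 4 gates 7962326 UMIs were counted, and a count of 0 was taken to allow 3 counts. All 4 gates are stroma, and no kept class lacks Rab RNA, so the level that free RNA gives was not measured.

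Scrublet (scanpy 1.11.5) marked 10 of 5486 barcodes and has not worked, and none was in a gate. The steps were tested on simulated data. DESeq2 1.42.0, RLE scaling, no filter on low counts, no block, thinning, other gates and filters, and leaving out each library were alternatives. The alternatives without barcodes shared between libraries, without barcodes with immune markers and without the top 5% of Scrublet scores were chosen after seeing the data. The members, lists and tests were chosen with earlier results of these data known. Named are the tested members of the early, recycling and late lists, other Rab genes called in at least 2 of 4 gate contrasts, and partners called alike in the 3 single contrasts. Rab29, Rab1b, Rab8a, Rab1a, Rab2a, Rab4a, Rab4b, Rab6a, Rab31, Rab36 and some partners were named after their values were seen. Coordinates are GRCm38 (GENCODE M21). Short descriptions of the 2-IC libraries, Biotin24h for replicate 1 and Biotin7d for replicate 2, conflict with their titles, which were used. That they are replicates of 1 condition rests on these titles.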

Additional observations from a re-analysis of the deposited data

Results flagged for a closer look

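Of 44 Rab genes with a value in every library, 9 had a Cr2-positive level that lay on one side of the other gates in both 2-IC libraries and on the other side in the 1-IC library. The share of all genes with this pattern was not counted, so the 9 are not read as a trait of Rab genes. Values are log2 of the Cr2-positive CPM over the mean CPM of the other 3 gates of the same library. The difference between the conditions was not tested, since 1-IC had 1 library. Rab4a was at 1.69 in 1-IC and at -0.06 and -0.83 in the 2-IC libraries, Rab6a at 0.33 against -0.30 and -0.21, and Rab7 at 0.14 against -0.24 and -1.04. Rab9 was at -0.03 against 0.11 and 0.33, Rab22a at -0.77, from 9 UMIs, against 0.17 and 0.15, Rab31 at -0.71 against 0.48 and 0.48, and Rab36 at -1.52, from 1 UMI, against 1.01 and 0.06. Rab4b was at 0.05 against -0.78 and -0.62, from 2 UMIs in the 1-IC library, and Rab7b at 0.01 against -0.21 and -1.20, from 4. At equal depth 7 of the 9 kept the pattern of signs, though the sizes moved. Rab4a in 1-IC was then at 0.10 in place of 1.69, and Rab31 at -0.07 in place of -0.71. Rab6a and Rab7 in 1-IC were then at 0.56 and 0.44. Rab4b and Rab7b did not keep the pattern, with 1-IC values of -0.94 and -0.59 on the same side as the 2-IC libraries. The partner gene Vps39 was at -0.62 against 1.33 and 1.71.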

How the results depend on the processing

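Of 43 called values of single genes, the alternatives gave 673 further values, of which 527 were called in the same direction, 141 kept the direction without a call and 5 turned. The 5 Rab calls against the mean of the gates became 3 in DESeq2, 0 with no replicate block, 0 of 11 tested after thinning to 2000 UMIs, 11 with no contaminant filter, 8 with overlapping gates and 3 without shared barcodes, and 0 to 5 without 1 library (0 without 2-IC replicate 1, 1 without 1-IC). The 1 call against Tnfsf11 became 0 in DESeq2, with no block, after thinning, without Malat1-poor, shared or immune marker barcodes, 2 with a gate at 2 UMIs, 5 with no contaminant filter and 6 with overlapping gates, and 0 to 2 without 1 library. The 2 calls against Fmod became 1 in DESeq2 and without Malat1-poor, top Scrublet score or immune marker barcodes, 0 with no block and after thinning, 8 with no contaminant filter and 6 with overlapping gates, and 0 to 3 without 1 library. The 6 calls against Inmt became 3 in DESeq2, 1 with no block and after thinning, 12 with no contaminant filter, and 0 to 5 without 1 library. Over all genes, the 752 calls against Tnfsf11 became 1218 with a gate at 2 UMIs. They became 1713 with no contaminant filter and 2234 with overlapping gates. The 1115 against Fmod became 2254 and 2400 under these, and the 1804 against Inmt 3213 with no contaminant filter. In the order Tnfsf11, Fmod and Inmt, the counts were 572, 925 and 1397 in DESeq2 and 291, 541 and 833 with no block. After thinning they were 276, 357 and 656. Between the Malat1 classes, thinning gave 2 calls of 2 Rab genes tested, Rab14 (-1.27, adjusted p = 0.0431) and Rab2a (-1.75, adjusted p = 0.0137). Both were fitted lower in Malat1-poor barcodes. The equal-depth sums of their groups hold other genes too and cannot show whether these genes fell. The block is the library, so the pairing comes from the shared cell suspension, and without it 699 of all genes were called against the mean of the gates in place of 1535. That count was 522 after thinning, where 2269 genes were tested, 3151 with no contaminant filter, 2822 with overlapping gates and 893 without 2-IC replicate 1. With no contaminant filter Rab12 turned to -0.45 (adjusted p = 0.0206) against the mean and -0.44 against Inmt, Cd63 to -0.0805 and -0.199 (mean, Fmod) and Lamp1 to -0.15, -0.19 and -0.14 (mean, Fmod, Inmt). Dropping that filter admits barcodes with UMIs of genes such as Cd79a, Cd79b and Ptprc, so the gates then hold other barcodes as well. The cause was not tested. The equal-depth share ratio of Rab11b moved from 0.702 to 0.642 at 1000 UMIs. Removing Scrublet doublets changed nothing, as none was in a gate. Depth limits the 20 members under the filter and the Fmod gate of 1-IC, which holds 10 barcodes.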
